A study of Mus musculus with 7 samples.

Results

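The Toll-like receptors and their adaptors were examined in microglia sorted from inside and outside neuronal grafts in 5xFAD mice. The group holds 10 genes, chosen by name from the 55341 gene names of the deposited count table, with no cut on their values: the receptors Tlr1, Tlr2, Tlr3, Tlr4, Tlr7, Tlr9 and Tlr13, the co-receptor Cd14, the trafficking protein Unc93b1 and the adaptor Myd88. Earlier results of these data were known when the group was chosen. All 10 were found and all 10 passed the filter on low counts, which left 15257 genes for testing. Embryonic cortical cells of WT C57BL/6 mice had been injected into the cortex of 5xFAD hosts on a C57BL/6 background, which express mutant human APP and PS1 from the neuron-specific Thy1 promoter and deposit Aβ. At 4 weeks after injection, when the labels give an age of 14 weeks, CD11b+CD45low cells were sorted from dissected grafts (inside graft, 3 libraries) and from cortical pieces near the transplant (outside graft, 4 libraries). Both groups therefore share the 5xFAD host, the surgery and the gate, and no library of a mouse without a graft or of a WT host entered the comparison. The study's methods state that only female mice were used, and whether a library came from 1 mouse or from several is not given in the sources used here.

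Toll-like receptors are membrane proteins that bind conserved molecules of microbes and some molecules of damaged cells or aggregated proteins. Those at the cell surface (Tlr1, Tlr2, Tlr4, with Cd14 as a co-receptor) mostly sense lipids and lipoproteins, whereas Tlr3, Tlr7, Tlr9 and Tlr13 sense nucleic acids in endosomes, which they reach with the chaperone Unc93b1. Myd88 carries the signal of all of them except Tlr3 to the kinases that activate NF-kB, and microglia are the main cells of the brain that express the family. Tlr2, Tlr4 and Cd14 have been described as microglial receptors for fibrillar Aβ.

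Some sequence bears directly on how these genes could be measured or on where the result lay. Tlr1 and Tlr6 are neighbours on chromosome 5, and their coding sequences share a run of 229 identical bases (GRCm38, GENCODE M21). It covers coding bases 1468 to 1696 of 2385 in Tlr1 (chr5:64925537-64925765, minus strand) and 1507 to 1735 of 2418 in Tlr6 (chr5:64953828-64954056, minus strand). It is printed 5′ to 3′ because a read of 75 bases from within it cannot be placed on either gene, and reads that align to several places were not counted.
Tlr1 and Tlr6, shared coding stretch: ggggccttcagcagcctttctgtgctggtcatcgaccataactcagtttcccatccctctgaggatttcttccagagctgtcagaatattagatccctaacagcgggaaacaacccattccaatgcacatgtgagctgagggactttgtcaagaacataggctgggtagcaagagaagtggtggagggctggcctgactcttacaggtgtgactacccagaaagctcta
Of all runs of 75 bases in the transcripts of Tlr1, 10.3% were also found in Tlr6, whereas Tlr2, Tlr4, Cd14, Tlr7, Tlr9, Tlr13 and Unc93b1 shared no such run with any other gene. The counts of Tlr1 and Tlr6 therefore lack the reads lost there.

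Tlr1 and Tlr2 were the genes of the group whose libraries separated upward between the compartments (below), so the 250 bases before their RefSeq start sites are shown (GRCm38.p6, minus strand, 5′ to 3′, chr3:83841609-83841858 for Tlr2 and chr5:64933559-64933808 for the upstream of 2 start sites of Tlr1). Capitals mark matches to the motifs searched on both strands, which were the NF-kB consensus, the PU.1 site GAGGAAGT, the AP-1 site TGANTCA and the interferon regulatory factor repeat GAAANNGAA.
Tlr2 promoter: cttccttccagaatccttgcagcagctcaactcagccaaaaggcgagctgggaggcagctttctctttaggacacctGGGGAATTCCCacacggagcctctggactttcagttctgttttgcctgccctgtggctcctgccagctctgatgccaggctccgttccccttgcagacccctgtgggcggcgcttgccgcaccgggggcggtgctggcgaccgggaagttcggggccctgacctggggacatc
Tlr1 promoter: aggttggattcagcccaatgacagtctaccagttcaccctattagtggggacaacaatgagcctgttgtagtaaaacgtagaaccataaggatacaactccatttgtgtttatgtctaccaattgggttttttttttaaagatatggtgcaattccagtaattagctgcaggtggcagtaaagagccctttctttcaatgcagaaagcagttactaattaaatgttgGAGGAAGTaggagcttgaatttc
In the Tlr2 window the NF-kB consensus matched at 173 and 172 bases before the RefSeq start site, on overlapping letters, and the match at 172 read on both strands. GENCODE M21, used for counting, starts Tlr2 at chr3:83841767 and Tlr1 at chr5:64933563, within these windows. Part of the printed bases therefore lies inside the genes of that annotation. In the Tlr1 window the PU.1 site, bound by the lineage factor of macrophages, lay 23 bases before the start site. The window of the other Tlr1 start site (chr5:64932700-64932949, not printed) held no match to any of the motifs searched. By the same search, 7.25% of 32851 promoters of that length held the NF-kB consensus and 2.44% the PU.1 site, 6.75% the AP-1 site and 7.13% the interferon regulatory factor repeat. RefSeq promoters were also matched for Tlr3, Tlr9, Tlr13 and Myd88. There the NF-kB consensus matched in Tlr3, the AP-1 site in Tlr9 and the interferon regulatory factor repeat in Myd88. A match describes letters and not binding, and no promoter of Tlr4, Tlr7 or Unc93b1 was used here.

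Total counts ran from 23241114 to 25882122 per library inside the graft and from 18644807 to 24599193 outside it, and the libraries of a group differed by more than counting noise in all 9 pairs (chi-square per degree of freedom at least 16.6). Values are CPM, the counts of a gene relative to the library total, which was scaled by TMM (a trimmed mean of log ratios between libraries). Differences were tested by edgeR's quasi-likelihood method and by limma's voomWithQualityWeights, the test that the study used. Both had Benjamini-Hochberg adjustment over 15257 genes and were called at an adjusted P below 0.05. The study itself called genes at an adjusted P below 0.01. At that threshold voomWithQualityWeights called 3 genes here, all higher inside, and 0 of the 10. The labels do not say that libraries came from separate mice, so these P values measure the spread between libraries. In bulk samples, fewer cells that express a gene and less of its RNA in each cell cannot be told apart. The sort was checked against marker lists. The summed CPM of 8 homeostatic microglial markers was 42410 to 49140 inside and 48240 to 54160 outside. The astrocyte list summed to 249 to 299 CPM inside and 327 to 351 CPM outside, nearly all of it Slc1a3, with Gja1 at 0 in every library. The list of B cells and plasmacytoid dendritic cells summed to 523 to 572 CPM inside and 569 to 638 CPM outside, nearly all of it Ighm, with Ms4a1 at 0 in every library. The oligodendrocyte list summed to 155 to 165 CPM over all libraries, the endothelial list to 30.7 to 61.3 CPM and the neuronal list to 3.73 to 10.99 CPM. Neutrophil markers were not at 0: their summed CPM was 6488, 648 and 13630 in inside graft 1, 2 and 3, against 0.311 to 297 outside, with 5 of the 8 genes above every outside library and S100a8 the most abundant. The 7 monocyte markers summed to 655, 90.4 and 1371 CPM inside and to 17.2 to 31.99 outside, with 6 of 7 higher on average inside and F10 at 0 in every outside library. Most of the inside sums was Chil3, at 587, 67.6 and 1189 CPM, and 2 of the 7 genes lay above every outside library. Ccr2 in inside graft 2, at 4.26 CPM, lay within its outside range of 4.06 to 18.1 CPM. The 8 markers of border-associated macrophages summed to 118, 16.8 and 125 CPM inside and to 5.96 to 17.8 outside, and all 8 were higher on average inside. Neutrophils and monocytes are known to carry several of these receptors themselves, among them Tlr2, Tlr4 and Cd14. The gate described in the study's methods also used antibodies to Ly6C and Ly6G, and how fully it removed these cells was not tested. Ly6g had 207, 50 and 413 reads inside and 0 to 18 reads outside.

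Of the 10 genes, Tlr2 was the one that differed between the compartments past a threshold, and only with part of the tests. voomWithQualityWeights called 1 of 10 higher inside the graft, where it called 0.433% of all genes higher, and 0 of 10 lower, where it called 0.0590%. The edgeR test called 0 of 10, against 0.0983% of all genes, and 1 of 10 had an unadjusted P below 0.05, against 9.55% of all genes (4 of 10 with voomWithQualityWeights, against 12.2% of all genes). DESeq2 called Tlr2 alone, higher, with 2.10% of all genes called higher and 0.656% lower. Fold changes in edgeR were above 0 for 5 genes and below 0 for 5, and their median log2 fold change was -0.05, beside -0.01 over all genes tested.

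**Figure D1:**
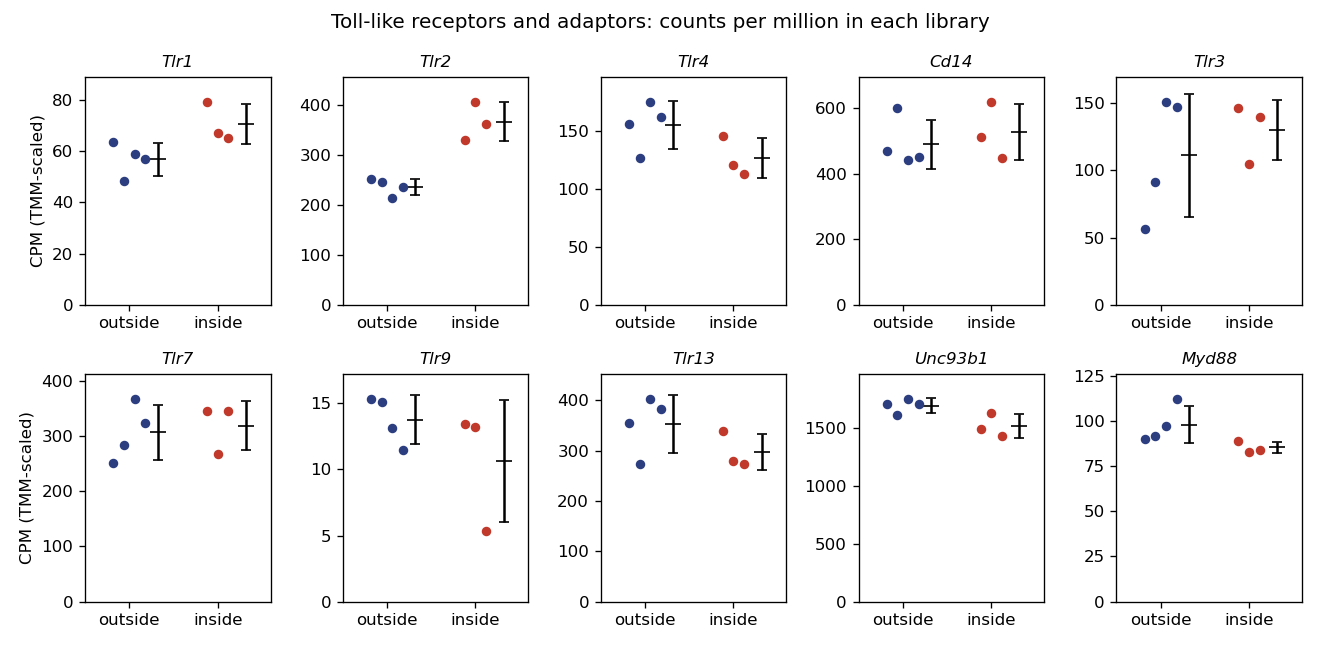
CPM (TMM-scaled, linear axes from 0) of the 10 genes in each library, with outside-graft libraries in blue and inside-graft libraries in red, and the mean ± SD of each group as a bar beside the points. Tlr2 has 3 inside libraries between 330 and 407 CPM, all above the 4 outside libraries, while most other genes overlap.

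Tlr2 recognizes bacterial lipoproteins as a dimer with Tlr1 or Tlr6. It lies at chr3:83836272-83841767 (GRCm38, minus strand, ENSMUSG00000027995.10, 3 exons) and overlaps no other annotated gene. Inside the graft it measured 330, 407 and 362 CPM in libraries 1, 2 and 3, from 8407, 9159 and 8600 reads. Outside the graft it measured 251, 245, 213 and 235 CPM in libraries 1 to 4, from 4700, 5498, 5302 and 5791 reads. All inside libraries exceeded all outside libraries, and the gap between the groups was wider than the whole range outside. The means were 366 ± 38.4 CPM (SD, n = 3) inside and 236 ± 16.4 CPM (SD, n = 4) outside. The fold change was 1.55 in edgeR (log2 0.64, SE 0.113, 95% confidence interval 0.38 to 0.89, adjusted P = 0.0728), which ranked Tlr2 at 44 of 15257 genes by P. With voomWithQualityWeights the log2 fold change was 0.66 (SE 0.102, adjusted P = 0.0367, rank 19), and with DESeq2 it was 0.65 (SE 0.117, adjusted P = 1.06e-05). The size of the difference was nearly the same in the 3 tests, and the adjusted P was not.

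Tlr2 and the neutrophil and monocyte sums were all higher in every inside library than in any outside library, the monocyte sum mainly through Chil3. Within the groups, inside graft 2 had the highest Tlr2 level, 407 CPM, and the lowest neutrophil and monocyte sums of the inside group, whereas inside graft 1 had a neutrophil sum of 6488 CPM with 330 CPM of Tlr2 and inside graft 3 had 13630 CPM with 362 CPM of Tlr2. Outside graft 3 had the highest neutrophil sum outside, 297 CPM, and the lowest Tlr2 level of all 7 libraries. Leaving out inside graft 1 and 3, a setting chosen after seeing the data, keeps only inside graft 2 in that group. With that single library, the one with the most Tlr2, the log2 fold change was 0.79 in edgeR and 0.82 in voomWithQualityWeights, values that its choice made larger and that have no inside spread of their own. All 8 border-associated macrophage markers were also higher on average inside, though their sums overlapped between the groups. The part of neutrophil, monocyte and border-associated macrophage RNA in the Tlr2 difference was not tested. The call of voomWithQualityWeights was lost without inside graft 3 (adjusted P = 0.0551), outside graft 3 (0.181) or outside graft 4 (0.119), while the log2 fold change stayed between 0.58 and 0.74 with any library left out. The call was also lost without the quality weights (0.0633). These settings moved the calls over all genes too. In the main fit 66 genes were called higher and 9 lower. The test called 48 genes without inside graft 3, and 1 each without outside graft 3 or outside graft 4. Without the weights it called 10.

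**Figure D2:**
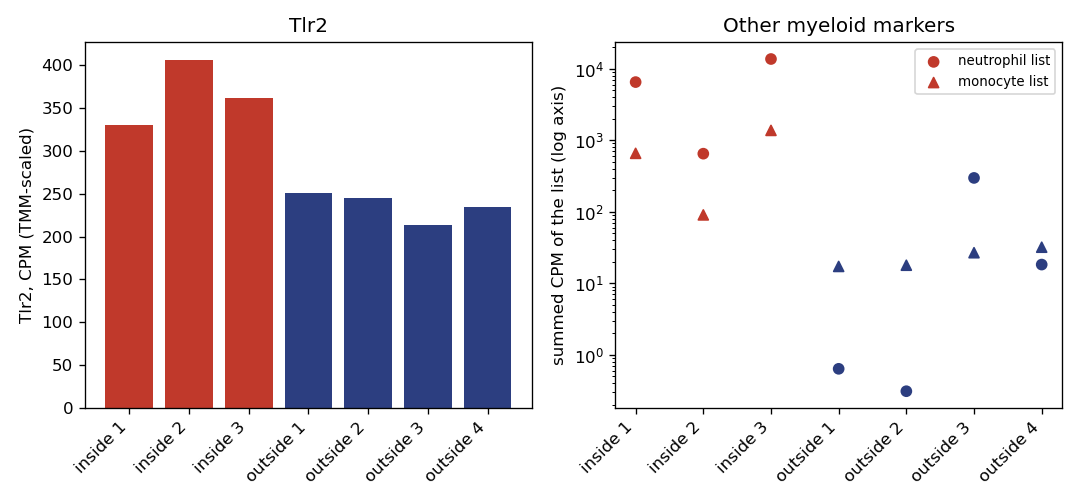
Left, Tlr2 in each library in CPM (bars from 0). Right, summed CPM of the neutrophil list (circles) and the monocyte list (triangles) in the same libraries on a log axis, with inside-graft libraries in red and outside-graft libraries in blue. Inside graft 2 has the tallest Tlr2 bar, 407 CPM, and the lowest neutrophil sum of the inside libraries, 648 CPM.

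Tlr1, the partner of Tlr2 for triacylated lipopeptides (chr5:64924679-64933563, minus strand, ENSMUSG00000044827.10), had a smaller difference of the same direction that passed no test. It measured 79.6, 67.3 and 65.2 CPM inside and 63.5, 48.3, 59.0 and 57.1 CPM outside. The groups did not overlap, but the gap was narrow, between 65.2 in inside graft 3 and 63.5 in outside graft 1. With library size alone as the scaling the gap shrank to 63.91 against 63.88 CPM. In TPM, which scales each library by its sum of counts per gene length and not by TMM, the groups overlapped. The means were 70.7 ± 7.75 CPM (SD, n = 3) and 57.0 ± 6.41 CPM (SD, n = 4), and the log2 fold change was 0.31 (SE 0.142, 95% confidence interval -0.004 to 0.63, adjusted P = 0.532 in edgeR and 0.335 in voomWithQualityWeights). The other partner of Tlr2, Tlr6, measured 39.9, 37.0 and 35.7 CPM inside and 33.1, 43.9, 44.4 and 40.7 CPM outside, so its groups overlapped, with an edgeR log2 fold change of -0.11 (SE 0.156, adjusted P = 0.901).

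Tlr4, the lipopolysaccharide receptor (chr4:66827584-66930284, plus strand, ENSMUSG00000039005.13, 6 exons), tended the other way. It measured 146, 121 and 112 CPM inside, or 126 ± 17.4 (SD, n = 3), and 156, 126, 175 and 162 CPM outside, or 155 ± 20.7 (SD, n = 4). The overlap came from inside graft 1 and outside graft 2 alone. The log2 fold change was -0.29 (SE 0.144, 95% confidence interval -0.61 to 0.03), with an adjusted P of 0.57 in edgeR and 0.403 in voomWithQualityWeights. Cd14, a single-exon gene on chromosome 18 whose protein hands lipopolysaccharide to Tlr4 and also serves Tlr2, was among the most abundant genes of the group. It measured 512, 620 and 449 CPM inside and 469, 601, 441 and 450 CPM outside. The groups overlapped, and the log2 fold change was 0.10 (SE 0.149, 95% confidence interval -0.23 to 0.44, adjusted P = 0.903 in edgeR and 0.738 in voomWithQualityWeights). Its sign turned without inside graft 2, where the log2 fold change was -0.03. The ratio of Cd14 to Tlr4 in TPM ran from 11.3 to 16.5 inside and from 8.08 to 15.3 outside, so it overlapped as well.

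The endosomal receptors showed no difference past a threshold. Tlr7, which detects single-stranded RNA (chrX:167304929-167330558, minus strand, 6 exons), measured 346, 267 and 346 CPM inside and 252, 283, 368 and 324 CPM outside. Inside graft 2 and outside graft 1 were the low libraries, and the edgeR log2 fold change was 0.06 (SE 0.153, 95% confidence interval -0.28 to 0.40, adjusted P = 0.957). Its direction was not stable: it was -0.02 with voomWithQualityWeights, and in edgeR it fell below 0 without inside graft 3 or without outside graft 1.

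Tlr13, a mouse receptor for bacterial ribosomal RNA (chrX:106143204-106160493, plus strand, 4 exons), measured 338, 280 and 274 CPM inside and 354, 273, 404 and 382 CPM outside. Outside graft 2 lay below all inside libraries and the other outside libraries lay above them. The means were 298 ± 35.3 CPM (SD, n = 3) and 353 ± 57.2 CPM (SD, n = 4), with a log2 fold change of -0.25 (SE 0.149, 95% confidence interval -0.58 to 0.08, adjusted P = 0.671 in edgeR and 0.484 in voomWithQualityWeights).

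Tlr3, the receptor for double-stranded RNA and the one that signals through Ticam1 (chr8:45395665-45411080, minus strand, 8 exons), varied widely among the outside libraries. It measured 147, 105 and 140 CPM inside and 56.3, 91.0, 151 and 147 CPM outside, a spread of 111 ± 45.9 (SD, n = 4) that covered the inside values. The log2 fold change was 0.23 (SE 0.298, 95% confidence interval -0.44 to 0.89, adjusted P = 0.891). Without outside graft 1 it was 0.01. The antisense gene Gm45542 shares exon bases with Tlr3, and since strand was not used in counting, reads there fit either gene. Gm45542 itself had between 5 and 19 reads in a library, which does not measure the reads over the shared bases.

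Tlr9, which detects unmethylated CpG DNA (chr9:106222598-106226883, plus strand, 2 exons), was the least abundant of the 10 genes. It measured 13.4, 13.2 and 5.31 CPM inside, from 342, 297 and 126 reads, and 15.4, 15.1, 13.1 and 11.5 CPM outside. Inside graft 3 stood apart at less than the level of any other library, and the other inside libraries lay within the outside range. The log2 fold change was -0.37 (SE 0.328, 95% confidence interval -1.10 to 0.36, adjusted P = 0.815). The interval is the widest of the 10.

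Unc93b1, the chaperone that carries the endosomal receptors out of the endoplasmic reticulum (chr19:3935186-3949340, plus strand, 10 exons), was the most abundant gene of the group. It measured 1495, 1632 and 1433 CPM inside and 1709, 1613, 1759 and 1713 CPM outside. Inside graft 2 alone reached the outside range, and with library size alone as the scaling the groups no longer overlapped, with 1464 to 1549 CPM inside and 1632 to 1790 CPM outside. The log2 fold change was -0.16 (SE 0.088, 95% confidence interval -0.36 to 0.04, adjusted P = 0.629 in edgeR and 0.391 in voomWithQualityWeights). Myd88, the adaptor (chr9:119335934-119341411, minus strand, 5 exons), measured 89.1, 83.2 and 84.2 CPM inside and 90.3, 92.0, 97.4 and 113 CPM outside. The inside libraries all lay below the outside libraries, by 89.1 against 90.3 CPM at the nearest, and the log2 fold change was -0.20 (SE 0.12, 95% confidence interval -0.47 to 0.07, adjusted P = 0.674 in edgeR and 0.487 in voomWithQualityWeights). Myd88 shares exon bases with Acaa1a on the opposite strand, which was expressed at 81.6 to 119 CPM. Since strand was not used in counting, reads over the shared bases fit either gene, and their effect on the Myd88 counts was not tested.

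In all, the inside libraries exceeded all outside libraries for 2 of the 10 genes, Tlr1 and Tlr2, where this held for 5.65% of all genes, and below for 1 of 10, Myd88, where it held for 5.02%. The remaining 7 overlapped.

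**Figure D3:**
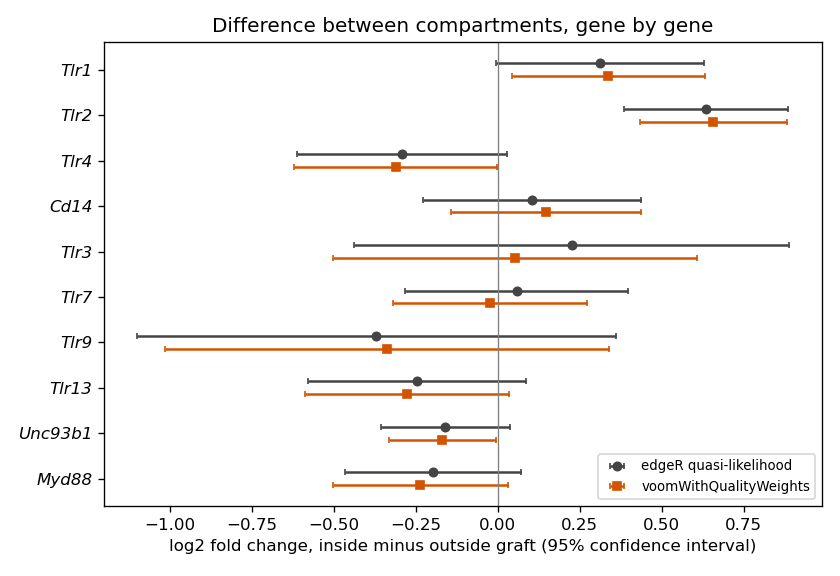
Log2 fold change, inside minus outside graft, of the 10 genes with 95% confidence intervals, from edgeR (grey circles) and voomWithQualityWeights (orange squares). For Tlr2 both intervals lie far above 0, at 0.38 to 0.89 in edgeR and 0.43 to 0.88 in voomWithQualityWeights, and in edgeR the other 9 intervals include 0, while in voomWithQualityWeights those of Tlr1 (0.04 to 0.63), Tlr4 (-0.62 to -0.004) and Unc93b1 (-0.33 to -0.006) also exclude 0 before adjustment.

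To compare genes with each other, levels were expressed per gene length, in TPM. Outside the graft the order was Unc93b1 (1771 ± 136 TPM, SD, n = 4), Cd14 (891 ± 111), Tlr13 (260 ± 51.8), Tlr2 (246 ± 8.04), Tlr7 (239 ± 50.1), Myd88 (121 ± 16.5), Tlr4 (88.2 ± 15.1), Tlr3 (68.5 ± 30.7), Tlr1 (53.8 ± 6.75) and Tlr9 (12.4 ± 1.24). The ranges of Tlr13 and Tlr2, of Tlr2 and Tlr7, of Tlr4 and Tlr3 and of Tlr3 and Tlr1 overlapped over the outside libraries, so their order there is not fixed. Unc93b1 lay above Cd14, Cd14 above every receptor and Tlr7 above Myd88 in all 7 libraries. Inside the graft Tlr2 stood at 356 ± 19.5 TPM (SD, n = 3) and was the most abundant of the 7 receptors in all 3 libraries, with 334 TPM as its lowest value against 258 TPM as the highest of Tlr7 and 240 TPM as the highest of Tlr13.

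The 5 remaining mouse Toll-like receptors completed the order. Tlr12, an endosomal receptor for profilin, was at 84.2 ± 34.7 TPM (SD, n = 4) outside, with a range that overlapped those of Tlr4 and Tlr3, and Tlr6 followed at 34.4 ± 5.36. Tlr5, the flagellin receptor, was at 12.6 ± 5.87 TPM, in the range of Tlr9. Tlr11 and Tlr8 were low and uneven between libraries. Tlr8 had 0 reads in inside graft 2, outside graft 2 and outside graft 3, where a count of 0 allows up to 0.121 to 0.133 CPM. It measured 5.46 and 3.88 CPM in inside graft 1 and 3 and 0.64 and 1.78 CPM in outside graft 1 and 4, from 139 reads at most. Its edgeR log2 fold change was 2.35 (SE 1.61). Tlr11 measured 3.42, 3.77 and 0.421 CPM inside and 1.44, 0.089, 1.25 and 1.30 CPM outside. None of these 5 receptors was called by edgeR, voomWithQualityWeights or DESeq2, with edgeR adjusted P values from 0.728 for Tlr8 to 0.948 for Tlr5, and 0 of 5 had an unadjusted P below 0.05 in edgeR or voomWithQualityWeights.

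**Figure D4:**
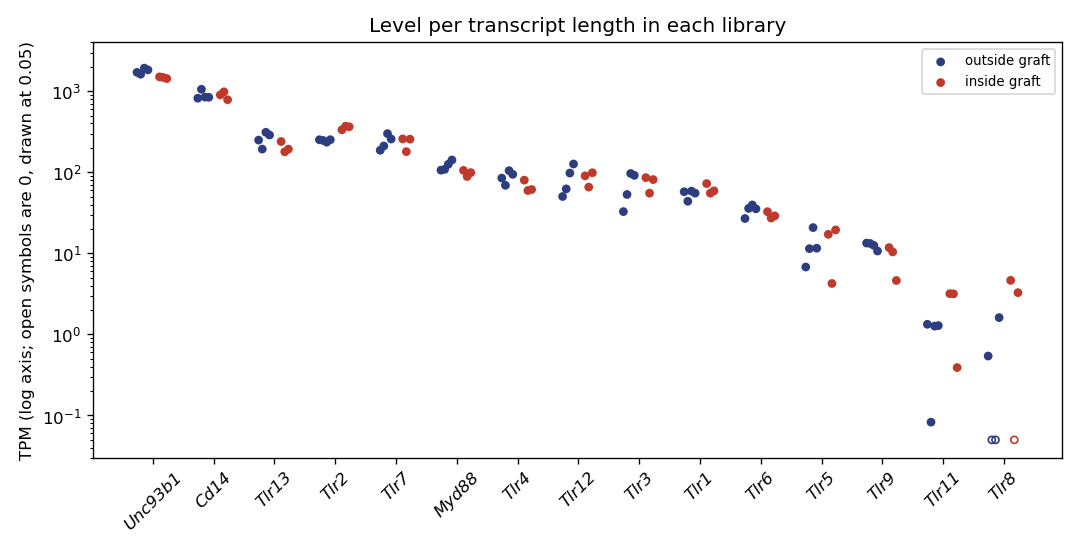
TPM (log axis) of the 10 genes and the 5 other Toll-like receptors in each library, ordered by their mean outside the graft, with outside-graft libraries in blue, inside-graft libraries in red and values of 0 as open symbols at 0.05. Tlr2 is the receptor whose inside points, 334 to 370 TPM, all stand above its outside points, 235 to 252 TPM.

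Shares within a library do not depend on how libraries were scaled to each other, and they are given as a description. Of the summed TPM of the 7 receptors, Tlr2 made up 30.9%, 40.7% and 35.7% inside and 28.7%, 29.7%, 21.01% and 24.0% outside. The share of Tlr4 was 7.39%, 6.55% and 6.01% inside and 9.68%, 8.31%, 9.35% and 8.99% outside. Tlr13 took 22.1%, 19.6% and 18.9% inside and 28.4%, 23.2%, 27.9% and 27.4% outside. The Tlr2 share was thus higher in every inside library, and the shares of Tlr4 and Tlr13 lower, while the shares of Tlr1, Tlr3, Tlr7 and Tlr9 overlapped. The 7 receptors together summed to 909 to 1082 TPM inside and 830 to 1119 TPM outside, so their total overlapped as well. The endosomal receptors made up 46.7% to 55.0% of the total inside and 55.0% to 64.4% outside, so the groups met at the edge. The ratio of Unc93b1 to their sum was 2.53 to 3.48 inside and 2.68 to 3.54 outside. Because shares add to a fixed total, a higher share of Tlr2 lowers the others.

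For each gene, the genes with the most similar profile were found as those with the smallest root mean square difference of log2 CPM over the 7 libraries, after centring each gene. All profiles share the same libraries and scaling, so the measure is descriptive. Tlr2 was nearest to Tnfsf13b (0.0822), which codes for a B-cell survival cytokine, and to the long noncoding RNA Pvt1 (0.0852). Tlr1 was nearest to Arl14ep (0.0539) and Coro1c (0.069). Tlr4 and Tlr13 each had Kctd21 as the nearest gene (0.0463 and 0.0415) and each other as the next (0.0483), among 15257 genes, beside a spread of 0.24 for either gene on its own. The distances of the nearest genes of the other members ran from 0.0369 for Unc93b1 (St6galnac4) to 0.0977 for Tlr9 (Lmln).

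Beyond the 10 genes, 54 genes of Toll-like receptor signaling were followed, of which 51 were tested. Il12b, Nos2 and Ptgs2 did not pass the filter on low counts. The edgeR test called 0 of 51 and voomWithQualityWeights 0 of 51, while 10 and 12 of them had an unadjusted P below 0.05, where this held for 9.55% and 12.2% of all genes. DESeq2 called 2 of 51 higher, Ikbke and Irf7, where it called 2.10% of all genes higher. Fold changes were above 0 for 28 and below 0 for 23, with a median log2 fold change of 0.09 in edgeR, and the groups did not overlap for 7 genes, with the inside libraries above for 5 (5.65% of all genes) and below for 2 (5.02% of all genes). The inside libraries were the higher for Irak4, Ikbke, Irf7, Irak3 and Cxcl10 and the lower for Tab2 and Cd80, of which Irak4, Tab2 and Cd80 are named after their values were seen. The part of neutrophil, monocyte and border-associated macrophage RNA in the values of these genes was not tested.

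**Figure D5:**
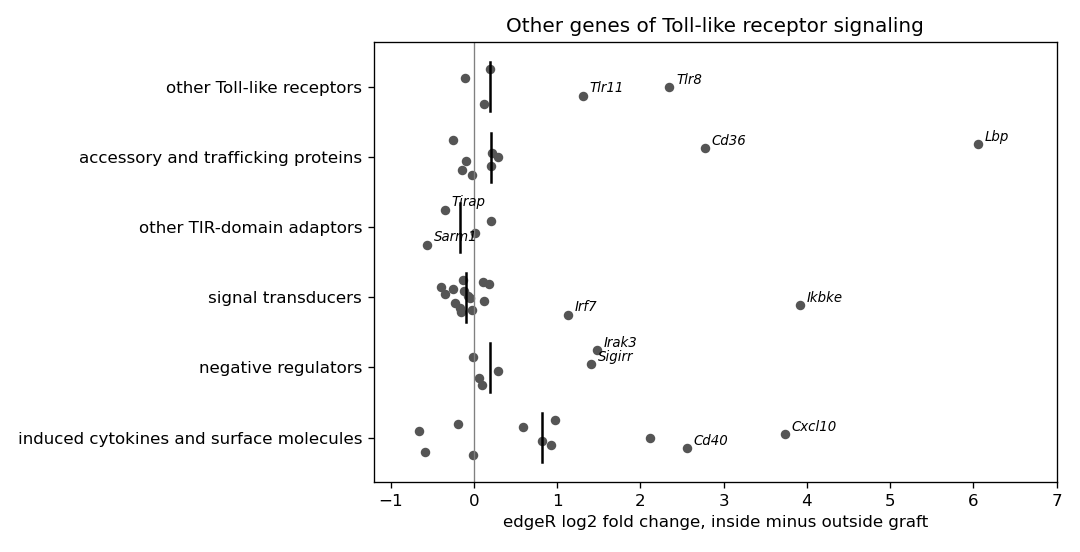
edgeR log2 fold change, inside minus outside graft, of the 51 tested genes of Toll-like receptor signaling outside the group, by role, with the median of each role as a vertical bar and the 2 genes farthest from 0 named. Most signal transducers lie near 0, with a median of -0.09, whereas induced cytokines and surface molecules have a median of 0.82 and a wide spread.

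Of 16 signal transducers, 5 had a fold change above 0 and 11 below, with a median log2 fold change of -0.09, and of 4 further adaptors with a TIR domain 2 lay above and 2 below. Ikbke, a kinase of the interferon branch, measured 7.34, 5.41 and 7.04 CPM inside and 0, 0.4, 0.04 and 1.25 CPM outside, where outside graft 1 had no read and outside graft 3 had 1. Its groups did not overlap (edgeR adjusted P = 0.174, voomWithQualityWeights 0.0546, DESeq2 0.00376). Irf7, a transcription factor that carries the signal of Tlr7 and Tlr9 to interferon genes and is itself induced by interferon, measured 49.3, 82.3 and 52.0 CPM inside and 42.1, 16.7, 17.7 and 34.99 CPM outside. Its log2 fold change was 1.14 (SE 0.335, adjusted P = 0.245 in edgeR, 0.0838 in voomWithQualityWeights and 0.0259 in DESeq2). The adaptors farthest from 0 were Sarm1 and Tirap, which bridges Tlr2 and Tlr4 to Myd88. Their log2 fold changes were -0.56 and -0.35, with edgeR adjusted P values of 0.679 and 0.59.

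Of 9 accessory and trafficking proteins, 5 lay above 0 and 4 below, and all 9 overlapped between groups. Lbp, which transfers lipopolysaccharide to Cd14, had 215, 15 and 656 reads inside and 17 reads in outside graft 3 with 0 in the other outside libraries, where 0 reads allow up to 0.122 to 0.16 CPM (edgeR adjusted P = 0.132). The inside values of Lbp, 8.44, 0.666 and 27.6 CPM, had the same order as the neutrophil sums of those libraries, and the part of neutrophil RNA in this was not tested. Cd36, a scavenger receptor that works with Tlr2 and Tlr6, measured 0.864, 11.9 and 21.2 CPM inside and 0.32, 0.489, 1.85 and 3.89 CPM outside (edgeR adjusted P = 0.363).

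Of 6 negative regulators, 5 lay above 0, with a median log2 fold change of 0.19. Irak3, an inhibitor of the Myd88 branch, measured 22.1, 14.2 and 21.99 CPM inside and 0.587, 10.1, 7.44 and 9.56 CPM outside, without overlap, and had a log2 fold change of 1.48 (SE 0.636, edgeR adjusted P = 0.493). Sigirr, a decoy-like receptor of the same superfamily, was at 0.667 to 3.12 CPM inside and 0 to 1.21 CPM outside (edgeR adjusted P = 0.769).

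Among 11 tested cytokines and surface molecules that these receptors induce, 7 lay above 0 and 4 below. Cxcl10, a chemokine induced by interferon, measured 23.1, 49.3 and 20.1 CPM inside and 0, 2.85, 2.94 and 3.32 CPM outside. The groups were far apart, yet no test called it (log2 fold change 3.74, SE 0.772, adjusted P = 0.0934 in edgeR, 0.0597 in voomWithQualityWeights and 0.0882 in DESeq2). The edgeR test called it without outside graft 1. Cd40, a co-stimulatory receptor, measured 0.392, 9.28 and 2.91 CPM inside and 0 to 1.17 CPM outside and overlapped (edgeR adjusted P = 0.507). Cd80, another co-stimulatory molecule, measured 20.9 ± 3.78 CPM (SD, n = 3) inside and 31.5 ± 4.14 CPM (SD, n = 4) outside, with an edgeR adjusted P of 0.299. The dissociation-induced early genes, which rise in cells during tissue processing, summed to 540 to 708 CPM inside and 510 to 657 CPM outside, and the groups overlapped.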

How the data were processed

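Microglia of 3 inside-graft and 4 outside-graft libraries of 5xFAD mice were compared. The authors sequenced single reads, aligned them with STAR 2.7.2a to GRCm38.p6 and counted them per gene name with featureCounts 1.6.2 on GENCODE M21; they deposited raw counts (versions from the submitters' processing notes). By the file headers, strand was ignored and reads with several alignments were not counted. Reads were amplified and carry no molecular identifiers, so limits at a count of 0 (3 reads) cover counting error only.

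From the counts, CPM, TPM (with the deposited gene lengths) and all tests were derived in R 4.3.3 with edgeR 4.0.16 (filterByExpr, TMM, glmQLFit, glmQLFTest), limma 3.58.1 and DESeq2 1.42.0. Scripts were tested on simulated data. Groups and replicate numbers came from the labels. Members and gene lists were chosen with earlier results of these data known. Named genes were all members, all other Toll-like receptors, and the 2 genes of each further list with the largest absolute edgeR log2 fold change. Profiles used a prior of 0.5 CPM. Alternatives were other scalings, filters, tests and thresholds, a replicate block and each library left out.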

Additional observations from a re-analysis of the deposited data

Results flagged for a closer look

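Among 27 values tested for a sample far from the others in the outside-graft group, 2 were flagged, and chance flags about 1 in 20. Tlr11 was at 0.089 CPM in outside graft 2, from 2 reads, against 1.25 to 1.44 CPM in the other outside libraries. The Tlr1 share of the summed TPM of the 7 receptors was 6.56% in outside graft 1, against 5.23% to 5.29% in the others. Outside graft 1 was the library with the fewest counts, and its quality weight, 0.448, was the lowest.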

How the results depend on the processing

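Groups of 3 and 4 libraries limit what the tests can call, and no library without a graft was compared. Of the 10 genes, edgeR called 0, but 1 (Tlr2) with no filter on low counts (adjusted P = 0.0121), with at least 10 counts in every library (0.0187) and with DESeq2 (1.06e-05). voomWithQualityWeights called 1, but 0 at an adjusted P below 0.01, the study's threshold. It called 0 without quality weights, and 0 to 1 with each library left out. Of the other pathway genes, edgeR called 0, but 4 with no filter, 2 with DESeq2 and 0 to 1 with each library left out (Cxcl10 without outside graft 1). voomWithQualityWeights called 0 of them, but 2 with no filter (Ikbke and Cxcl10), 1 with at least 10 counts in every library (Irf7), 2 (Ly86 and Cxcl10) with inside graft 2 as the single inside library, without both inside libraries of the highest neutrophil sum, and 0 to 1 with each library left out. The single-library setting was chosen after seeing the data and assumes that the lone library varies like the outside ones. The calls over all genes moved as well. In edgeR they were 15 of 15257 in the main fit, 366 of 29525 with no filter and 92 of 12066 with at least 10 counts. In voomWithQualityWeights they were 66 higher and 9 lower of 15257, then 225 with no filter and 211 with at least 10 counts. With each library left out they ran from 0 to 73 in edgeR and from 1 to 207 in voomWithQualityWeights. The cause of these moves was not tested.

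The log2 fold change of Tlr2 stayed above 0 in all 16 alternatives of edgeR, at 0.55 to 0.79 with adjusted P from 1.06e-05 to 0.181, and in all 15 of voomWithQualityWeights, at 0.58 to 0.82 with adjusted P from 0.00752 to 0.181. Directions turned for Cd14 (-0.028 to 0.22 with each library left out), Tlr7 (-0.025 to 0.17 likewise, and -0.20 with inside graft 2 alone) and Tlr3 (-0.088 with inside graft 2 alone, its lowest inside library, as it is for Tlr7). The other 7 genes kept their direction in all 16 alternatives of edgeR.

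The labels do not state a pairing, so the replicate number was not taken as one. Deviations of libraries with the same number correlated at -0.06, 0.10 and 0.09, and those with different numbers at -0.158 to 0.074. With so few libraries these values cannot decide whether libraries with the same number shared mice. With the number as a replicate block and without outside graft 4, edgeR called 0 of the 10 genes and 0 of the pathway genes (Tlr2 log2 fold change 0.63, adjusted P = 0.159). voomWithQualityWeights with the block called 1 of the 10, Tlr2 (0.68, adjusted P = 0.0117), and 5 of the pathway genes (Lbp, Cd36, Irf7, Cxcl10 and Ccl3). Among all 14900 genes tested with the block, edgeR called 43 and voomWithQualityWeights 265.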
